A study of Homo sapiens with 9 samples.

Results

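Of the 71597 regions formed by merging the peaks of 4 ATAC-seq peak lists that shared at least 1 bp, 10897 (15.2%) held a peak of the IGF2BP2 knockout list and no peak of the other 3 lists. They were selected on presence in the lists alone. Each was made of 1 peak. They took up 18.1% of the 60262 peaks of that list (Wilson 95% interval 17.8 to 18.4, counting error over peaks only) and 5.44 of its 44.76 Mb. The share of peaks in regions of 1 list alone was 3.61% in the control list (1416 of 39194), 8.47% in the IGF2BP1 knockout list (4314 of 50917) and 7.96% in the IGF2BP3 knockout list (3506 of 44041). The IGF2BP2 knockout list was the longest, and the read depth behind the lists is unknown, so these shares move with how much was called in each list.

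ATAC-seq marks DNA that the Tn5 transposase can reach, such as promoters, enhancers and insulators. The cells were HEK293T, an established human embryonic kidney line that carries the SV40 large T antigen. Knockouts were made by transient transfection with plasmids carrying 3 guide RNAs against IGF2BP1, IGF2BP2 or IGF2BP3 together with GFP, followed by sorting of single cells, and 1 clone per gene was used. The control received a guide with no mammalian target, and no group had a further treatment. The labels give 9 libraries of 100000 cells each: 2 of the control (batches 2 and 3), 3 of the IGF2BP1 knockout (batches 1, 2 and 3), 2 of the IGF2BP2 knockout (batches 2 and 3) and 2 of the IGF2BP3 knockout (batches 2 and 3). One list per group was deposited, with positions alone, so no spread between libraries could be measured and no comparison below carries a test. Clone and genotype cannot be told apart.

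IGF2BP2 belongs to a family of cytoplasmic RNA-binding proteins that hold target mRNAs, many of them with N6-methyladenosine, in a stable and translatable state. It is abundant in embryonic tissue, persists in the adult more widely than its 2 relatives, and is known for work on IGF2, HMGA2 and metabolic transcripts. As a check of the tissue label, the promoters of 15 of 20 kidney developmental regulators lay in the IGF2BP2 knockout list (16 in each other list), as did 1 of 11 promoters of mature kidney epithelium markers, 5 of 13 of blood cell markers and 39 of 57 of neural adhesion and synapse genes. The mature kidney, blood and neural counts in the control list were 1, 5 and 39.

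The members' own DNA was available where a RefSeq promoter window (250 bases before to 50 bases after a start site, GRCh38.p14) lay under them. The promoters of 6 genes are shown by the 250 bases before the start site, read 5′ to 3′ on the gene's strand, because a member and no other list's peak touched them. Capitals mark matches, on either strand, to the motifs searched. Of general promoter elements these were TATAAA, the TATA box that places the start of transcription, and CCAAT, the box read by the factor NF-Y. They also included GGGCGG, the GC box read by SP1. Of regulated factors they were TGANTCA for the stress-responsive AP-1 dimers, AGATAA for the GATA family, GGAATG for the TEAD partners of YAP1, and CACGTG for the E-box of MYC and related factors. The core of the interferon-stimulated response element was searched as GAAANNGAAA. The same condition held for 83 genes, from which these 6 were picked. CD244 and NPAS3 were picked from the 12 genes that a rule named for the widest promoter members. The other 4 were chosen after their values were seen.
TNFSF10: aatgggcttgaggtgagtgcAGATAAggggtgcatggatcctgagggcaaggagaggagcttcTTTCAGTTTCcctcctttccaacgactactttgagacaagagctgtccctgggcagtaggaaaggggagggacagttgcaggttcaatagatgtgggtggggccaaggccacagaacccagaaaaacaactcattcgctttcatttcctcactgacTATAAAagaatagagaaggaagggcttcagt
IFNL2: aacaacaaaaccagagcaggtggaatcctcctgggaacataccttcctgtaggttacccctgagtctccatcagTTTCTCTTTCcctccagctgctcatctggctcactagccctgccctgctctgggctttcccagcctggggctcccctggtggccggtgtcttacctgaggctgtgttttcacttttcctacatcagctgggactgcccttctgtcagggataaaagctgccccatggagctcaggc
SHFL: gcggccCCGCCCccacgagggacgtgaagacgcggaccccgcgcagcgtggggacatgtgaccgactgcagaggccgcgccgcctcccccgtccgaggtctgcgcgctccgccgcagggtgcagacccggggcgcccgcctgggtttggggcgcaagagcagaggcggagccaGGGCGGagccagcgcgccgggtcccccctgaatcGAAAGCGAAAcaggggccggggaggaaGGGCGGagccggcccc
IL33: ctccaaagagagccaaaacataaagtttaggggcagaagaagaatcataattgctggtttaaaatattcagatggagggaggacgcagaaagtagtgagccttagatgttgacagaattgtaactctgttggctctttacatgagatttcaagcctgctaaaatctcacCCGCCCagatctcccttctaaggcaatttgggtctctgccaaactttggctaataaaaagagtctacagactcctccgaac
CD244: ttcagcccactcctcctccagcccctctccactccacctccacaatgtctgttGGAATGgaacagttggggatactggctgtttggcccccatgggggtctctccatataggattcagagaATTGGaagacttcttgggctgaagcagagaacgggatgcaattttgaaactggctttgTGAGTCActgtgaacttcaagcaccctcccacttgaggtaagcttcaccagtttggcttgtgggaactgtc
NPAS3: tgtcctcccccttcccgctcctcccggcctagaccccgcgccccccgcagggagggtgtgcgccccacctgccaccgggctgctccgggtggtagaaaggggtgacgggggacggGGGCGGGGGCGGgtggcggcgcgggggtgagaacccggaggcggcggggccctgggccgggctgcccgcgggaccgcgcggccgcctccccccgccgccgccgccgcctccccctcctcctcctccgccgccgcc

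TNFSF10 encodes TRAIL, a ligand that triggers apoptosis. Its printed bases are chr3:172523431-172523680 on the minus strand, and the capitals are a GATA match 230 bases before the start, the interferon core at 187 and a TATA box at 31. IFNL2, a type III interferon, is shown for chr19:39268146-39268395 on the plus strand, with the interferon core 176 bases before the start. SHFL, an interferon-induced inhibitor of ribosomal frameshifting, is shown for chr19:10086067-10086316 on the plus strand, with GC boxes at 244, 77 and 16 bases and the interferon core at 43. IL33, a nuclear alarmin cytokine, is shown for chr9:6215557-6215806 on the plus strand, with a GC box at 81 bases. CD244, a receptor of natural killer cells, is shown for chr1:160862888-160863137 on the minus strand, with a TEAD match at 197, a CCAAT box at 129 and an AP-1 match at 71 bases. NPAS3, a neuronal bHLH-PAS transcription factor, is shown for chr14:32938629-32938878 on the plus strand. It was the most GC-rich of the 6, with 82.8% G and C, 33 CpG and GC boxes at 135 and 129 bases, while IFNL2 had 1 CpG and TNFSF10 had 2. The member covered all 250 printed bases at TNFSF10, SHFL and NPAS3, the 219 nearest the start at IL33, the 199 nearest at IFNL2 and the 96 nearest at CD244, where only the AP-1 match lay under it. A match is a run of letters and not a bound site.

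Members were narrow, a property that comes from the same readout as their selection and is given as a description. Their width ranged from 221 to 1710 bp with a median of 467 bp (quartiles 366 and 590), whereas the 49365 other peaks of the same list had a median of 705 bp (524 and 986) and reached 8041 bp. The median member sat at the 21.8th percentile of width in its list. The peaks of regions in 1 other list alone had medians of 454 bp (control), 602 bp (IGF2BP1 knockout) and 485 bp (IGF2BP3 knockout), each under the median of its whole list (771, 834 and 713 bp), as the members were under theirs (651 bp). Members made up 39.5% of the narrowest of 4 width classes of about equal size (5999 of 15169, 221 to 486 bp), 20.3% of the next (3040 of 14998), 10.2% of the next (1535 of 15030) and 2.14% of the widest (323 of 15065, from 917 bp).

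**Figure D1:**
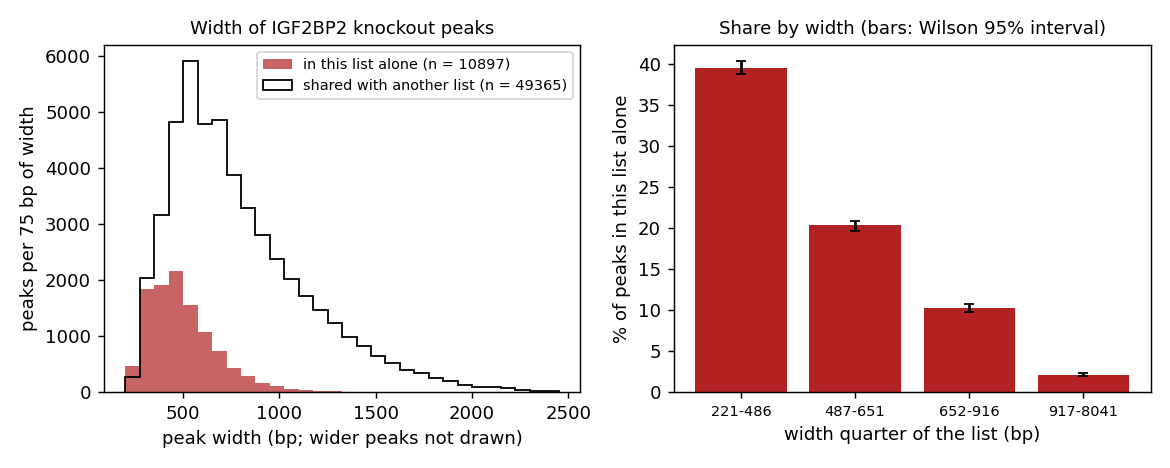
Left, number of IGF2BP2 knockout peaks by width in bp (bins of 75 bp, the widest peaks beyond the axis), with the 10897 peaks in this list alone filled and the 49365 shared peaks outlined. Right, percentage of the list's peaks that are in it alone in each of 4 width classes, falling from 39.5% to 2.14%; bars are Wilson 95% intervals.

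Most members lay well away from any peak of the other lists. The median gap to the nearest of them was 15.4 kb (quartiles 6.30 and 35.5 kb, 10889 members with such a peak on the same sequence). Only 13 members lay within 100 bp, 184 within 500 bp and 428 (3.93%) within 1 kb, so near misses of the overlap rule were few. At the other end 676 (6.21%) lay at least 100 kb away, the farthest at 1704 kb. The median gap was 28.4 kb to the control list, 19 kb to the IGF2BP1 knockout list and 22.9 kb to the IGF2BP3 knockout list, in the reverse order of the lengths of those lists. Just inside the rule, chr1:51642851-51643562 lay 1 bp from another list's peak, and chr1:149444827-149445217 and chr11:10659232-10660130 lay 7 bp away. Just outside it, the peak chr3:53643383-53643993 shared 5 bp with an IGF2BP3 knockout peak, chr14:94345457-94346660 shared 26 bp with an IGF2BP1 knockout peak, and chr6:117555474-117556508 shared 30 bp with an IGF2BP3 knockout peak.

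The 5 widest members at least 1 kb from the other lists comprised 1 inside a protein-coding gene, 1 over a long noncoding RNA gene and 3 between genes. The widest, 1710 bp at chr20:20412566-20414275, lay inside RALGAPA2, which encodes the catalytic subunit of a Ral GTPase-activating complex, 42.9 kb from the nearest peak of another list. The next, 1682 bp at chr2:224085420-224087101, lay 46.1 kb from SERPINE2, a secreted serine protease inhibitor. A member of 1654 bp at chr1:193786154-193787807 overlapped the long noncoding RNA LOC124904475, 531 kb from CDC73, a subunit of the PAF1 complex. These widths are between the 97.38th and the 97.86th percentile of the list. Members of 1617 bp at chr4:64078548-64080164 (196 kb from TECRL) and 1609 bp at chr2:186015489-186017097 (182 kb from FSIP2) had a percentile of 97.02 and 96.95. Their gaps to the other lists were 75.9 and 19.8 kb.

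Members seldom lay at gene ends, a property that the selection did not use. On the main chromosomes 940 of 10836 members (8.67%, 8.16 to 9.22) lay within 1 kb of the start or end of a gene, against 34.3% of the other IGF2BP2 knockout peaks and 48.6% of regions in all 4 lists. The corresponding share was 14.9% for regions of the control list alone, 10.4% (9.49 to 11.3) for those of the IGF2BP1 knockout and 11.7% (10.7 to 12.8) for those of the IGF2BP3 knockout. A promoter window was touched by 188 members (1.73%, 1.51 to 2.00), against 23.1% of the list's other peaks. Regions of the other lists alone touched one in 3.77% (control), 3.32% (IGF2BP1 knockout) and 3.33% (IGF2BP3 knockout) of cases. All 4 single-list classes were thus mostly distal, and the members were the most distal of them by these counts. The annotation table gives each gene's start and end without exons, so exonic, intronic and UTR positions were not determined.

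The difference in gene-end share was present in each width class of the list. In the narrowest class 9.01% of members and 14.8% of shared peaks lay at a gene end. In the next classes the shares were 8.42% against 17.4% and 7.98% against 29.0%. In the widest class 26 of 321 members (8.10%, 5.59 to 11.6) did so, against 65.1% of shared peaks. The members' share stayed between 7.98% and 9.01% while that of shared peaks rose with width.

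**Figure D2:**
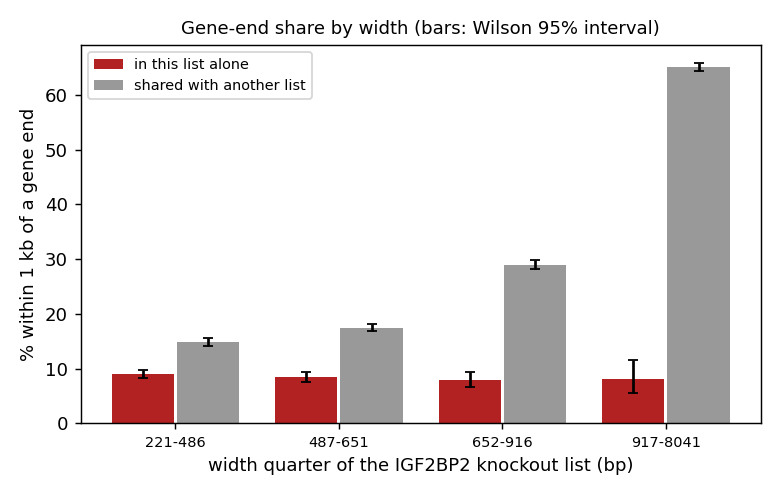
Percentage of IGF2BP2 knockout peaks within 1 kb of a gene end in 4 classes of peak width (bp), for peaks in this list alone and for peaks shared with another list; bars are Wilson 95% intervals. Peaks in this list alone stay between 7.98% and 9.01%, while shared peaks go from 14.8% to 65.1%.

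Against the list's other peaks, members also lay farther from protein-coding genes. Inside a protein-coding gene lay 42.4% of members, against 58.3% of the list's other peaks, and 36.4% were at least 50 kb from one (35.5 to 37.3), against 19.6%. By these measures regions of the IGF2BP3 knockout list alone were much like the members, with 42.4% inside a protein-coding gene and 35.3% (33.8 to 36.9) at least 50 kb away. Those of the IGF2BP1 knockout list had 51.2 and 26.4%, and those of the control list 56.0 and 18.4%. At least 500 kb from any protein-coding gene lay 1147 members (10.6%, 10.0 to 11.2), against 3.76% of the list's other peaks. For regions of the other lists alone that share was 4.20% (3.27 to 5.38) in the control, 3.55% (3.04 to 4.14) in the IGF2BP1 knockout and 7.38% (6.56 to 8.30) in the IGF2BP3 knockout. At that distance the members' interval did not overlap that of any other single-list class.

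The density of genes around members varied in step. Windows of 5 Mb were put into 4 classes by their number of protein-coding genes. Members were 28.0% of the list's regions in windows with 0 to 15 genes, 21.5% with 16 to 24, 17.2% with 25 to 39 and 12.2% with 40 to 201. Leaving out chromosome 11, treated below, these shares were 28.4, 21.6, 17.6 and 12.7%. For the IGF2BP3 knockout list's own regions the shares fell from 11.4 to 5.80%, and for the IGF2BP1 knockout list's from 10.8 to 5.70%. The control list's own regions stayed between 3.26 and 3.93%.

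**Figure D3:**
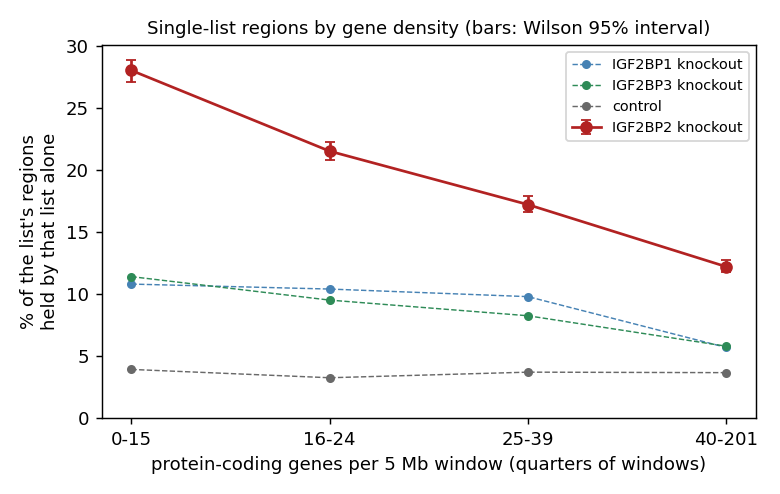
Percentage of each list's regions that are in that list alone, in 5 Mb windows grouped in 4 classes by their number of protein-coding genes. The IGF2BP2 knockout line goes from 28.0% in gene-poor windows to 12.2% in gene-rich windows (bars are Wilson 95% intervals), and the control line stays between 3.26% and 3.93%.

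Chromosomes differed in how many of the list's regions were members, with a median of 17.7% over 23 chromosomes. Chromosome 11 was lowest with 97 of 2019 regions (4.80%, 3.95 to 5.83), followed by chromosome 19 with 202 of 1978 (10.2%, 8.95 to 11.6) and chromosome 7 with 301 of 2433 (12.4%). Chromosome 13 was highest with 630 of 2498 (25.2%, 23.6 to 27.0), followed by chromosome 6 with 1033 of 4327 (23.9%, 22.6 to 25.2) and chromosome 4 with 777 of 3353 (23.2%). The intervals of chromosomes 13, 6 and 4 overlap, and that of chromosome 11 lies apart from all others. A high share on chromosome 13 was not particular to the members. The IGF2BP3 knockout list's own share there was 16.4%, against 8.05% over all its regions. For the IGF2BP1 knockout list the values were 10.5% and 8.50%, and for the control list 2.57% and 3.65%. Chromosome 19 is known as gene-dense and chromosomes 13 and 4 as gene-poor.

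On chromosome 11 the shortfall ran along the whole chromosome and concerned the list, not only its members. All 26 of its windows of 5 Mb had a share of members under that of the whole list (18.3%), the highest at 12.9%. The list held 1.09 regions there per control region, against 2.47 on chromosome 13, 1.72 on chromosome 6 and 1.21 on chromosome 19. Regions held by every list but the IGF2BP2 knockout made up 2.94% of the chromosome's regions (85), against 0.374 to 1.59% on the others. In regions with 1 peak in each of the 4 lists, the IGF2BP2 knockout peak was narrower than the mean of the others by a median log2 of -0.131 (1385 regions), against -0.032 over all 28672 such regions. The own regions of the IGF2BP1 knockout and IGF2BP3 knockout lists took 12.4 and 10.2% of those lists' regions on chromosome 11, and of the control list 4.0%. Over the 23 chromosomes the share of members and that width difference had a Pearson r of 0.69 (Spearman 0.58), and 0.49 (0.52) over 22 without chromosome 11. These points share the same libraries and depth, and the part of width in the chromosome differences was not tested. Copy number is not known from the lists, and its part in the low number of regions on chromosome 11 was not tested.

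**Figure D4:**
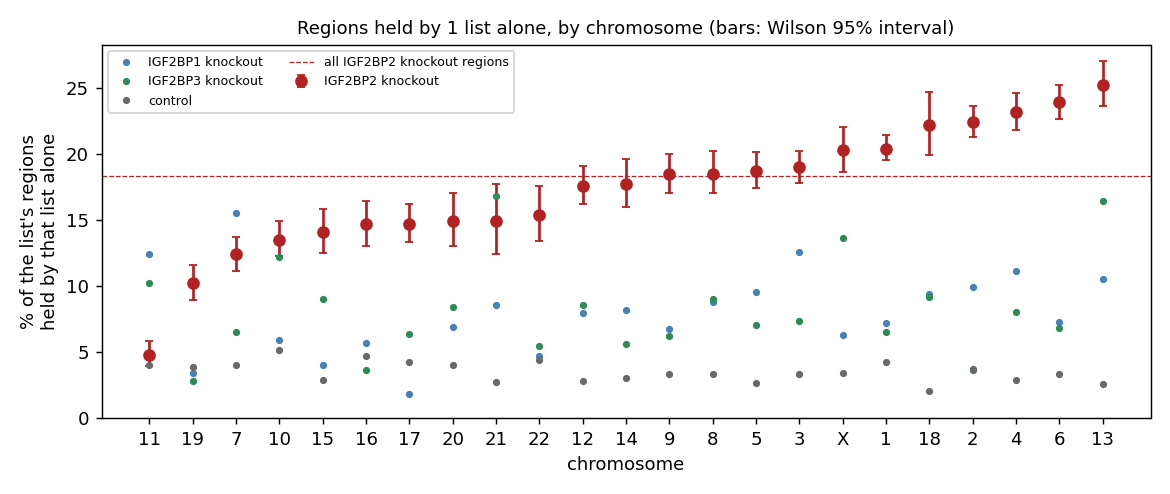
Percentage of each list's regions that are in that list alone, by chromosome in order of the IGF2BP2 knockout value, with Wilson 95% intervals for the latter and a dashed line at its overall share of 18.3%. Chromosome 11 sits at 4.80% and chromosome 13 at 25.2%.

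At the scale of 5 Mb every one of the 584 windows with at least 20 regions of the list held a member, and the share ran from 1.79 to 70.8% with a median of 17.4%. The windows with most members were on chromosome 13 at 60 to 65 Mb (89 of 260 regions), 65 to 70 Mb (86 of 299), 85 to 90 Mb (70 of 204) and 80 to 85 Mb (64 of 186), and on chromosome 1 at 120 to 125 Mb (72 of 203). From 60 to 95 Mb of chromosome 13, a stretch chosen after its values were seen, members made up 446 of 1500 regions (29.7%, 27.5 to 32.1), against 184 of 998 (18.4%, 16.2 to 21.0) on the rest of it. The highest shares were on chromosome 6 at 60 to 65 Mb (34 of 48, 70.8%) and at 65 to 70 Mb (36 of 70, 51.4%), chromosome 21 at 20 to 25 Mb (16 of 25, 64.0%), chromosome 14 at 15 to 20 Mb (15 of 26, 57.7%) and chromosome 1 at 70 to 75 Mb (47 of 94, 50%). The lowest were on chromosome 3 at 195 to 200 Mb (1 of 56, 1.79%) and 190 to 195 Mb (1 of 44, 2.27%). Both lie beyond the IGF2BP2 gene and were singled out after their values were seen. Whether reads can be placed uniquely in the windows named here was not tested.

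On chromosome 3 the share of members differed between the sides of the edited gene. IGF2BP2 lies at chr3:185643130-185825042 on the minus strand and spans 182 kb. Within 10 Mb on its low-coordinate side 56 of 192 regions of the list were members (29.2%, 23.2 to 36.0). Within 10 Mb on the high-coordinate side 1 of 83 was (1.20%, 0.213 to 6.51). Out to the end of the chromosome the high side held 2 members among 126 regions (1.59%, 0.436 to 5.60), against 767 of 3936 (19.5%, 18.3 to 20.8) on the low side. Within 10 Mb the intervals of the sides do not overlap.

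Moving away from the gene in steps of 5 Mb, members were 0 of 33 regions, 1 of 50 and 1 of 43 on the high side. The count of 0 allows a share of up to 9.09%. On the low side they were 17 of 107 regions (15.9%) in the first step and 39 of 85 (45.9%) in the next, and the 12 steps there ran from 9.70 to 45.9%. In the first step the Wilson intervals of the sides overlap slightly, with 10.2 to 24.0% on the low side and 0 to 10.4% on the high side. The 2 high-side members were chr3:194135952-194136208 (257 bp), at HES1, a Notch-responsive transcriptional repressor, which lay 0.663 kb from another list's peak and 8.31 Mb from the gene, and chr3:197631958-197632399 (442 bp), 11.8 Mb from the gene. Both were narrower than the members' median.

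The high side had fewer peaks of the IGF2BP2 knockout list altogether. Within 10 Mb the control list held 95 regions on the low side and 102 on the high side, whereas the IGF2BP2 knockout list held 192 and 83. Regions held by every list but the IGF2BP2 knockout made up 3 of 224 (1.34%) on the low side and 16 of 196 (8.16%) on the high side. In regions with 1 peak in each list the IGF2BP2 knockout peak had a median log2 width difference of 0.055 (72 regions) on the low side and -0.300 (69 regions) on the high side. Regions of the IGF2BP1 knockout list alone took 9.93% of that list's regions on the low side and 30.5% on the high side. The IGF2BP3 knockout list's own share was 5.50 and 7.87%, and the control list's 3.16 and 1.96%. A list's own share depends on which regions the other lists hold, so these values are not independent of the low number of IGF2BP2 knockout peaks on the high side. The number of copies of each side in the clone is not known from the lists, and its part in these values was not tested.

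**Figure D5:**
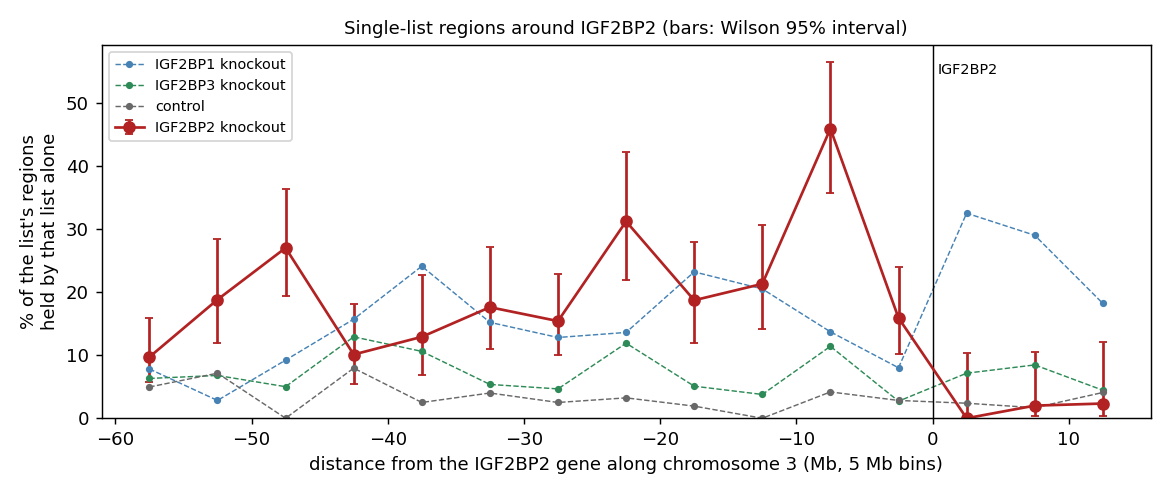
Percentage of each list's regions that are in that list alone, in 5 Mb steps of distance (Mb) from the IGF2BP2 gene along chromosome 3, negative toward low coordinates. The IGF2BP2 knockout points (Wilson 95% intervals) lie between 9.70% and 45.9% before the gene and at 0%, 2.00% and 2.33% after it.

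Within the gene, presence in the IGF2BP2 knockout list also varied. The regions there are few, and the flanks compared above do not show where in the gene a change would lie. The region over the promoter of IGF2BP2 (2127 bp) was present in all 4 lists. Going from there into the gene, the 6 regions that lay from 180 kb down to 58.6 kb from its low-coordinate end were held by 1 to 3 of the other lists, and none by the IGF2BP2 knockout list. The 3 regions between 45.6 and 17.1 kb and the one at the 3′ end were all in the IGF2BP2 knockout list. Of these, members were chr3:185677162-185677623 (462 bp) and chr3:185642910-185643651 (742 bp), the latter across the 3′ end of the gene.

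Members tended to lie next to other members. The nearest region of the same list was a member for 2706 of 10891 members (24.8%) and for 17.2% of the list's shared regions. For the IGF2BP3 knockout list's own regions the figures were 14.6 and 7.66%, for the IGF2BP1 knockout 11.2 and 8.36%, and for the control 4.31 and 3.73%. Most members stood singly between regions of other classes (6922, or 63.5%), 1231 pairs held another 22.6%, and 55 runs of 5 or more held 331 (3.04%).

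The longest run was 24 consecutive members over 2862 kb at chr6:60635304-63496904, next to the centromere, with widths from 347 to 1161 bp and KHDRBS2, an RNA-binding protein of the Sam68 family, FKBP1C and LGSN as its protein-coding genes. No region of any other class fell between them, and 15 of the 24 were still members when each list was cut to its 39194 widest peaks. A run of 11 at chr3:109398656-109685800 and one of 8 at chr3:110382157-110650962 held no protein-coding gene, nor did a run of 9 at chr1:122694412-122802473. The run of 9 held no annotated gene of any type and lies in the chromosome 1 window named above for most members. Whether reads can be placed uniquely there was not tested. The other run of 8, at chr7:143915003-144086748, lay over the olfactory receptor genes OR2F2, OR2F1, OR6B1, OR2A5, OR2A25 and OR2A12, a family with near-identical copies to which read placement is uncertain. With the widest peaks, 6, 2, 2 and 5 of these members were kept.

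By gene, 3151 of 20037 protein-coding genes (15.7%) had a member inside or within 1 kb. The share rose with gene length, from 2.65% under 10 kb and 12.2% from 10 to 100 kb to 49.5% above 100 kb, while members per Mb of gene were 4.43, 3.52 and 3.67. Counts by gene thus followed length. The 5 genes with most members were long genes of nerve, retina, muscle and cilium. PCDH9, a protocadherin of neuronal adhesion, held 16 members among 75 peaks of the list (21.3%), where the control list had 32 peaks, the IGF2BP1 knockout 58 and the IGF2BP3 knockout 61. RYR2, the calcium release channel of heart muscle, held 15 of 32 (46.9%), with 10, 19 and 16 peaks in the other lists in that order. EYS, a photoreceptor matrix protein, held 13 of 29 (44.8%), with 10, 14 and 13 elsewhere. NKAIN2, which interacts with a sodium pump subunit, held 13 of 39 (33.3%), with 9, 29 and 12. SPAG16, a protein of the sperm axoneme, held 12 of 17 (70.6%), with 4, 6 and 4. Members per Mb were 17.3 in PCDH9, 18.9 in RYR2, 6.54 in EYS, 12.7 in NKAIN2 and 10.7 in SPAG16, against 3.64 over all protein-coding genes. These 5 genes were selected on their member counts, so a high density was built into the choice. EYS and NKAIN2 lie on chromosome 6 and PCDH9 on chromosome 13, where the share of members was high.

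At promoters, 112 protein-coding genes had a member, and for 29 of them another list had a peak at a promoter of the same gene. The other 83 of the 15843 genes with a promoter window (0.524%) were held by the IGF2BP2 knockout list alone, against 30 genes held by the control list alone, 57 by the IGF2BP1 knockout list and 54 by the IGF2BP3 knockout list. In the same order these classes have 10897, 1416, 4314 and 3506 regions, so the counts are not shares. Per region the members touched promoter windows least often, as given above (1.73% against 3.77, 3.32 and 3.33%). The members there were 255 to 971 bp wide with a median of 454 bp, 22 of the 83 covered a whole window, and 7 lay within 1 kb of another list's peak.

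The 12 widest fell on genes of diverse function. The widest was 971 bp at SULT1A4, a phenol sulfotransferase that shares its sequence with SULT1A3, so read placement is uncertain. It was followed by APOBEC3H (932 bp, chr22:39097190-39098121), a cytidine deaminase that restricts retroviruses, LOC122455340 (878 bp), FRMPD3 (869 bp), CD244 (849 bp), ARHGEF38 (819 bp), the membrane protein MXRA8 (780 bp), the adhesion protein NINJ2 (750 bp), TRIML2 (736 bp), plasma prekallikrein KLKB1 (714 bp), NPAS3 (688 bp) and the metalloprotease ADAMTS18 (687 bp). The gap to another list was 8.49 kb at APOBEC3H and 31.1 kb at CD244, but 0.545 kb at NPAS3, whose GC-rich promoter is printed above.

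Besides APOBEC3H and CD244, genes of immunity among the 83 were picked after their values were seen, from no fixed list. Their members were 576 bp wide at IL33, 548 bp at TNFSF10, 494 bp at IFNL2, 416 bp at SHFL, 422 bp at the growth factor FLT3LG, 343 bp at the class II antigen chain HLA-DOB, 266 bp at the adhesion molecule ICAM4 and 255 bp at the phosphatase PTPN6. The nearest peak of another list was 32.3 kb away at IL33, 39.0 kb at TNFSF10, 9.41 kb at IFNL2 and 9.50 kb at SHFL. It was 19.2 kb away at HLA-DOB, but only 2.10 kb at ICAM4, 1.73 kb at FLT3LG and 1.47 kb at PTPN6. Others of this kind among the 83 include IL17D (549 bp, 0.252 kb from another list) and CYSLTR1 (398 bp, 60.7 kb). IFNL2 has near-identical neighbours of its family, so its read placement is uncertain. Of the 255 genes with a promoter window in the 11 gene lists described below, 0 had a promoter held by a member alone, which allows a share of up to 1.18% and so does not set them apart from the 0.524% of all genes. Angiotensinogen AGT (629 bp), the peptide hormone gene APELA (472 bp) and the histone pair H2AC8 and H2BC8, which share 1 member of 539 bp, were also among the 83. AKR1C1 and AKR1C2 have near-identical copies, and their placement is uncertain.

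The 91 promoter windows of these 83 genes were less GC-rich than the average promoter. Their median G and C content was 51.3% (quartiles 43.0 and 60) with 6 CpG per window, against 58.7% and 14 over all 35116 promoter windows, 66.7% and 27 over the 15653 in all 4 lists, and 48.3% and 4 over the 16970 in no list. They thus lay nearer to windows in no list than to those in all 4 lists. The 91 windows are of protein-coding genes, whereas the compared sets hold windows of any gene type. Of the 35116 windows 22199 are of protein-coding genes, so gene type was not matched here or for the motifs below. These values are for whole windows. A member covered a whole window at only 22 of the 83 genes, so a match can lie outside the member. The motif shares lay on the side of the windows in no list too. TATAAA was found in 21 of the 91 (23.1%), against 11.5% of all windows, 4.54% of those in all 4 lists and 18.1% of those in none. GGGCGG was found in 26 (28.6%), against 45.0, 73.6 and 18.5%. TGANTCA was found in 13 (14.3%), against 7.71, 3.73 and 11%, and AGATAA in 18 (19.8%), against 10.3, 4.18 and 16.1%. The interferon core was found in 5 (5.49%), against 3.57, 2.29 and 4.72%. CCAAT was found in 38.5%, against 34.6% of all windows, GGAATG in 15.4% against 14.0% and CACGTG in 2.20% against 7.26%. The interferon core printed for TNFSF10, IFNL2 and SHFL was thus about as frequent here as in promoters of no list.

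The whole list touched 126 of 1562 miRNA hairpins. Members touched 5 of the 126, a smaller share than the 18.1% that members made of the list's peaks. Mature sequences are shown with the seed, bases 2 to 8, in capitals, because the seed is the part that pairs with target mRNAs.
hsa-miR-137-3p: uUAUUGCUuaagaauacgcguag
hsa-miR-137-5p: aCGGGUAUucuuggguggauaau
hsa-miR-4435: aUGGCCAGagcucacacagagg
hsa-miR-4681: aACGGGAAugcaggcuguaucu
MIR137, a brain-enriched miRNA gene, lies at chr1:98046070-98046171 on the minus strand, wholly inside a member of 428 bp at chr1:98045913-98046340, 7.29 kb from the nearest peak of another list. MIR4435-1 and MIR4435-2 give 1 mature sequence from copies at different places of chromosome 2, under members of 343 and 285 bp, both 15.5 kb from other lists, and read placement between copies is uncertain. MIR4681 was touched by a member of 334 bp, 2.22 kb from another list. MIR8089 was the fifth. The 4 printed sequences have 4 different seeds. An open hairpin says nothing of how much miRNA is made.

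The gene lists were compared with the share expected for genes of the same lengths (under 10 kb, 10 to 100 kb, longer), as a description. Among innate sensors and adaptors 2 of 25 genes (8.0%, length-matched share 11%) had a member inside or within 1 kb, namely the RNA editor ADAR and the DNA sensor AIM2. Among interferon signalling and effector genes 2 of 36 did (5.56%, 11.6%), the kinase JAK1 and the transcription factor STAT3. Among NF-kappaB, cytokine and chemokine genes 2 of 26 did (7.69%, 8.49%), with 3 members among the 4 peaks in TGFB2 and 1 of 2 in the ubiquitin editor TNFAIP3. These counts are small and near the background. Per Mb of gene the 3 lists held 2.42, 1.67 and 5.16 members, against 3.64 over all protein-coding genes.

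Among oncofetal genes and known IGF2BP targets 9 of 29 had a member (31.0%, 26.0%). HMGA2, a chromatin protein of embryonic cells, held 3 among 6 peaks, IGF2BP2 itself 2 of 6, IGF1R, the receptor of IGF1 and IGF2, 1 of 17, and BTRC, INSR, LIN28B and CDK6 held 1 each. Members were 12.5% of the list's peaks in these genes, under the 18.1% of the list as a whole. Among N6-methyladenosine genes 2 of 20 had one (10.0%, 13.1%), the demethylase FTO with 4 of 10 peaks and the reader YTHDC2 with 1 of 2. Per Mb of gene the lists held 4.14 and 4.22 members, near the 3.64 over all protein-coding genes.

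Kidney developmental regulators had members at 7 of 30 genes (23.3%, 14.6%), with 3 of 10 peaks in the nuclear receptor ESRRG, 2 of 7 in EYA1 and 1 each in RET, HNF4A, HOXA11, POU3F3 and PPARGC1A. Their share of peaks, 13.9%, was again under that of the list. Neural adhesion and synapse genes had members at 44 of 73 (60.3%, 43.2%), with 151 members among 682 peaks (22.1%). CADM2 held 9 of 20, ROBO1 8 of 34 and EPHA6 8 of 19. These genes are very long (median 828 kb). Their 2.54 members per Mb were fewer than the 3.67 per Mb of all genes above 100 kb. The higher count by gene was thus not a higher density per Mb, while their share of peaks, 22.1%, was over the list's 18.1%. Homeobox, SOX, T-box, GATA and forkhead factors had members at 10 of 65 (15.4%, 11.5%), with 8 of 40 peaks in FOXP1 and 5 of 12 in SOX5. AP-1, TEAD and stress factors had them at 3 of 20 (15.0%, 12.1%), in ATF3, FOSL2 and YAP1. Blood cell markers had them at 1 of 20 (5.00%, 14.9%), RUNX1 with 4 of 11 peaks, and mature kidney markers at 3 of 16 (18.8%, 15.1%), in AQP1, CUBN and SLC34A1.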

How the data were processed

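ATAC-seq libraries of 4 groups of HEK293T cells were analysed from 4 deposited peak lists, 1 per group. Each list has 3 columns, and the deposited values are positions in bp with no score, height or p-value. The submitters' processing notes name fastp 0.24.1, BWA 0.7.17, MACS2 3.0.0, bedtools and GRCh38, without role, order or threshold. How libraries were combined, and how the transposase offset was treated, is not given in the sources used here. A list that is deeper or more permissive can hold more narrow peaks, and read depth is unknown.

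Peaks of the 4 lists sharing at least 1 bp were merged (Python 3.11.15, pandas 2.3.3, numpy 2.4.6, scipy 1.17.1), and each region was classed by the lists it held. The merging was tested on simulated data. Positions are counted from 1. Gene positions, miRNAs and promoters come from RefSeq tables of GRCh38.p14; 359 of 360 listed symbols matched, and 15843 of 20037 protein-coding genes had a promoter window. Intervals are Wilson 95% intervals and cover counting error over regions, which are not independent of their neighbours. A count of 0 is given with the share that 3 counts would make.

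Members and gene lists were chosen with earlier results of these data known. Named were the 5 widest members, the 5 genes with most members, the 12 promoters with the widest member, the 5 windows of 5 Mb with most members and with the highest share, the 5 longest runs, the IGF2BP2 gene with 10 Mb on each side, the members nearest to the rule, and listed genes with a member alone at a promoter or gene end, of which there were 0. Some listed genes are not reported here by name. Alternatives changed the overlap, the number of peaks, the distance to gene ends and the lists used.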

Additional observations from a re-analysis of the deposited data

How the results depend on the processing

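Cutting each list to its 39194 widest peaks lowered the members to 4451, their share of peaks to 11.4%, and the genes with a promoter in this list alone to 46, and raised the median width to 650 bp. The share of members became 2.23% on chromosome 11, 17.3% on chromosome 13 and 15.0% on chromosome 6. In an alternative chosen after seeing the data, it became 21.8% within 10 Mb on the low side of IGF2BP2 and 0% on the high side (0 of 64, up to 4.69%). Chromosome 11 stayed lowest and chromosome 13 highest, beside 11.5% over all regions. Members at least 500 bp from other lists were 17.8% of peaks, and 18.7% where another list had to cover 50% of a peak. The share at a gene end was 5.82% within 500 bp and 13.4% within 2 kb. Windows of 1 kb around gene starts and ends gave 189 genes. Leaving out the IGF2BP1 knockout list gave 16689 members, the control list 12064 and the IGF2BP3 knockout list 13420. Of the recomputed values, 21 stayed within 1.5 times the reported value (counts, these last 2 included), its 95% interval (shares) or 1 SD (width), and 15 did not.

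No paired analysis was possible because each group has 1 list and no column per library. Leaving out a replicate could not be done for the same reason. The lists carry no score, so width stood in for a stricter threshold, and depth, clone and batch could not be weighed.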
